A study of Mus musculus with 2 samples.

Results

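Genes of antigen presentation were examined in 2 rhabdoid tumors (RT) of Dppa3-cre::Smarcb1 Fl/+ mice. The members were all protein-coding rows of the count table whose symbol begins with H2-, the prefix of the mouse major histocompatibility complex (MHC), together with B2m, Tap1, Tap2, Tapbp, Tapbpl, Psmb8, Psmb9, Psmb10, Erap1, Nlrc5, Ciita and Cd74. This rule gave 46 of 55416 genes, of which 34 carried an H2- symbol. Another 11 of the 45 rows with an H2- symbol were annotated as pseudogenes and stayed outside. The members comprised 2 classical class I heavy chains, 22 non-classical class I heavy chains, the light chain B2m, 4 classical class II chains, 5 chains of class II peptide editing, the invariant chain Cd74, 5 genes of peptide transport and loading, 3 immunoproteasome subunits, the 2 transactivators Ciita and Nlrc5, and H2-Ke6. H2-Ke6 encodes a hydroxysteroid dehydrogenase and no MHC molecule, and was kept only because its symbol meets the rule.

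RT are malignant tumors that mostly arise after inactivation of Smarcb1, which encodes a subunit of the SWI/SNF chromatin remodeler. In this model Cre recombinase is expressed from the Dppa3 locus, which is active in primordial germ cells, so that 1 floxed Smarcb1 allele is deleted and the other is lost at random. Both tumors came from this heterozygous model on a C57BL/6 background, and both were classified as MYC. One was labelled intracranial and the other extracranial, and the 2 libraries are called intracranial and extracranial by these labels alone. For this model the paper shows stained tumors at the trigeminal nerve and at the upper jaw. It does not state that these were the 2 that were sequenced. Age and sex of the mice were not given in the sources used here. Each location had 1 library, made by poly(A) selection from a bulk piece of frozen tumor, so every comparison below is between 2 libraries, has no replicate check, and no spread between tumors could be measured.

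Class I molecules, made of a heavy chain and B2m, are carried by most nucleated cells and show peptides from the cytosol to CD8 T cells. These peptides are cut by the proteasome, moved into the endoplasmic reticulum by the TAP transporter, trimmed by Erap1 and loaded with the help of tapasin. Class II molecules are made mainly by dendritic cells, B cells and activated macrophages, are held by the invariant chain until they reach endosomes, and show peptides acquired there to CD4 T cells. Ciita switches on class II genes and Nlrc5 class I genes, and interferon-gamma raises both. The C57BL/6 strain carries the H-2b haplotype, which has no H2-L gene and does not make the E alpha chain.

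The intracranial library held 34545846 counts and the extracranial library held 26915696. Smarcb1, the targeted gene, had 365 counts in the intracranial library and 530 counts in the extracranial library. CPM below are counts over the scaled library size in the usual unit, and 3 counts, the floor used here, equal 0.0863 and 0.112 CPM. The libraries differed widely outside the members. The 8 keratinocyte markers summed to 20258 CPM in the intracranial library and to 0.747 CPM in the other. Postn, named in the study as strongly expressed by extracranial RT cells, went against the location labels. It had 49555 counts in the intracranial library and 20657 in the extracranial library. Neutrophil markers did not follow the other leukocyte lists in their sum. Their 7 genes summed to 1025 CPM in the intracranial library and 149 CPM in the extracranial library. S100a9 gave 416 and 0.486 CPM of these sums, Mmp9 319 and 90.8, and S100a8 258 and 0.336. Which cells carried this RNA was not tested. Of the 7 genes, 4 were called lower, against 5.41% of all genes. Csf3r of the same list went the other way, with 692 and 1542 counts and a log2 ratio of 1.53. Ly6g, with 4 counts and 1 count, had too few for a ratio. Over 21977 genes with at least 10 counts the median log2 ratio, extracranial over intracranial, was -0.04.

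The members took 0.474% of all counts in the intracranial library and 1.57% in the extracranial library. A ratio was given to 39 members with 10 or more counts over both libraries. Genes were called when the 95% interval of their ratio, which covers counting error only, did not reach back to 4-fold. By this rule 6 of the 39 members were higher in the extracranial library, namely H2-Eb1, Ciita, H2-Aa, H2-Ab1, Cd74 and H2-DMb1, against 1.78% of all genes with a ratio. None of the 39 was lower beyond 4-fold, against 5.41% of all genes. Each of the 6 belonged to the class II pathway. With a limit of 2-fold, 13 members were higher and 2 lower, against 5.86% and 9.77% of all genes. An edgeR exact test that assumed a coefficient of variation of 0.4 marked 5 members as higher and 0 as lower after Benjamini-Hochberg adjustment, against 1.46% and 5.25% of all genes. This spread was assumed and not measured, so the test adds no replicate error to the calls. The median log2 ratio of the 39 members was 0.77. In bulk tissue, fewer cells of a type and less RNA per cell cannot be told apart, and this holds for each difference below.

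**Figure D1:**
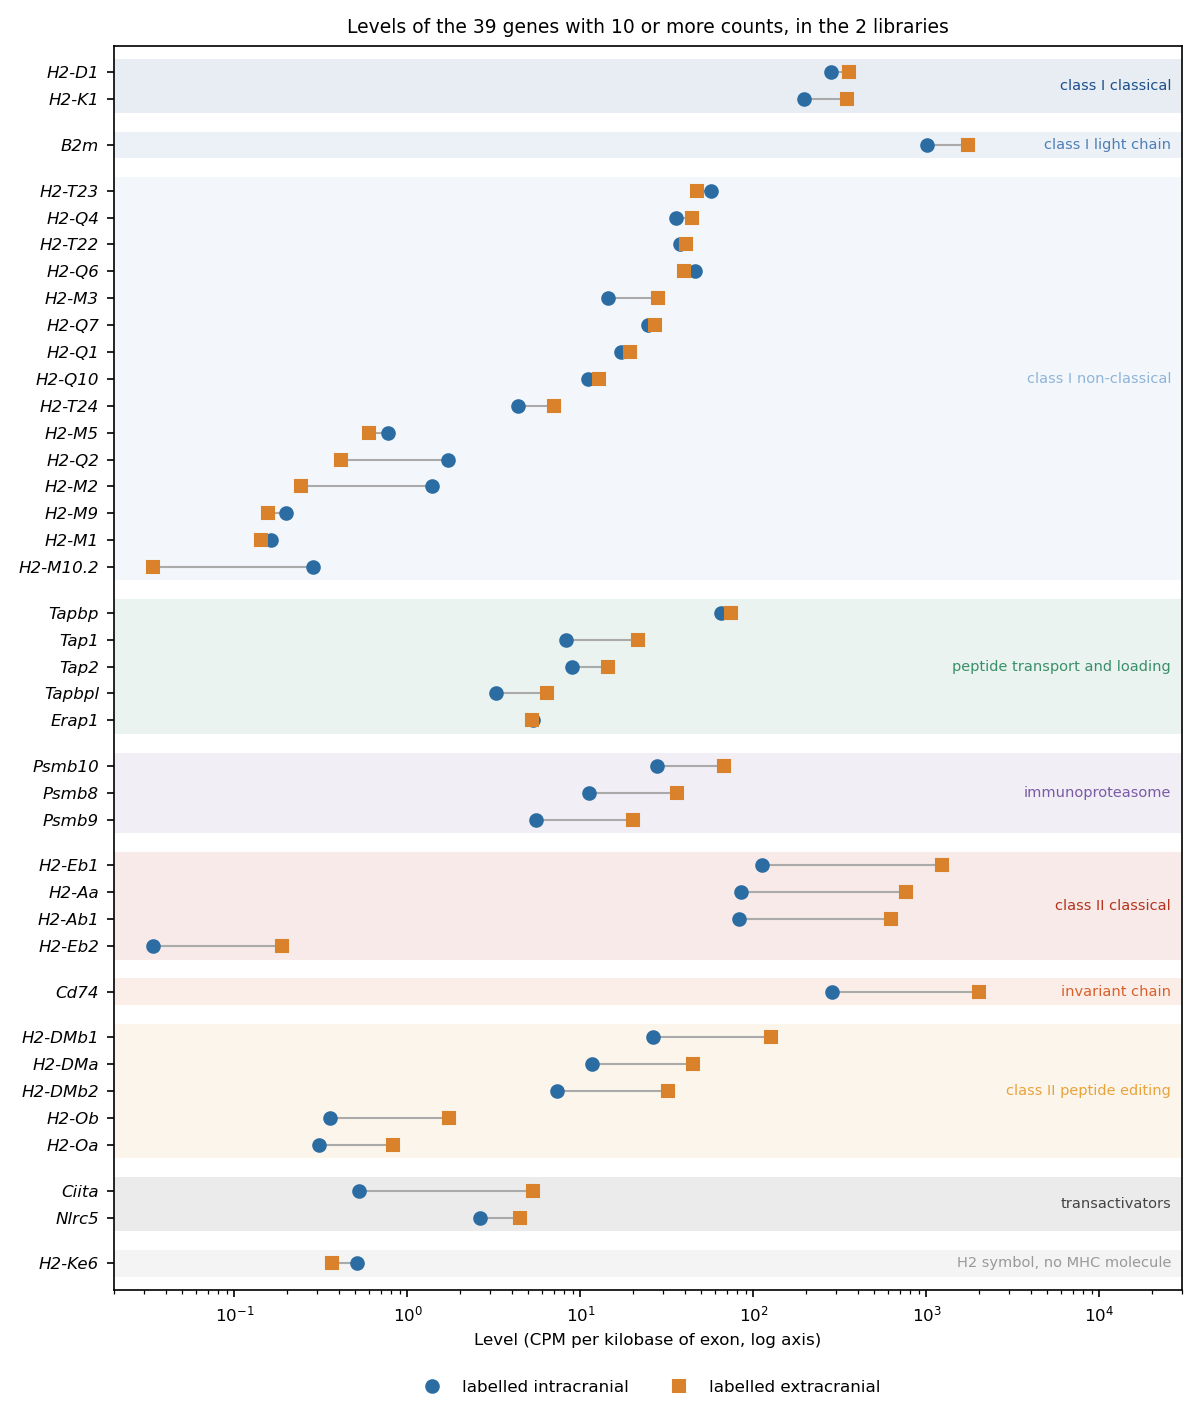
Levels of the 39 members with a ratio, in CPM per kilobase of exon on a log axis, with circles for the intracranial library and squares for the extracranial library. The classical class II genes H2-Eb1, H2-Aa and H2-Ab1 and the invariant chain Cd74 show the widest gaps among the abundant members, while most non-classical class I genes show nearly coinciding symbols.

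H2-Aa, which encodes the alpha chain of the class II molecule I-A, had 11182 counts in the intracranial library and 77805 in the extracranial library. These counts correspond to 322 and 2908 CPM, for a log2 ratio of 3.18 (3.15 to 3.20). H2-Ab1, its beta chain partner, had 7407 and 42593 counts, or 213 and 1592 CPM, and the log2 ratio was 2.90 (2.86 to 2.94). H2-Eb1, the beta chain of the I-E molecule, had 7602 and 63600 counts, or 219 and 2377 CPM. Its log2 ratio of 3.44 (3.41 to 3.48) was the highest among the 39 members, followed by that of Ciita. The 3 genes thus moved in the same direction, and their intervals did not overlap one another. H2-Eb2, a beta chain gene of little known function, had 4 and 17 counts, and its log2 ratio of 2.46 had an interval of 0.85 to 4.49 that did not clear the limit. The E alpha gene, listed as a polymorphic pseudogene and outside the members, had 0 counts in both libraries.

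Because both I-A chains and I-E beta were read in the same library, their proportions do not depend on library scaling. Per kilobase of exon, H2-Eb1 made up 40.1% of the classical class II level in the intracranial library and 46.9% in the extracranial library. The share of H2-Ab1 was 29.6% and 23.8%, and that of H2-Aa was 30.2% and 29.4%. The ratio of H2-Eb1 to H2-Ab1 differed by a log2 value of 0.54 (0.49 to 0.59) between the libraries. The classical class II level summed over its 4 genes was 280 CPM per kilobase in the intracranial library and 2608 in the extracranial library, a 9.30-fold difference.

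Cd74 encodes the invariant chain, which fills the peptide groove of new class II molecules and guides them to endosomes. It had 16533 counts (476 CPM) in the intracranial library and 90531 counts (3383 CPM) in the extracranial library. Its log2 ratio was 2.83 (2.81 to 2.85). By level per kilobase Cd74 stood at rank 400 of all genes in the intracranial library and at rank 22 in the extracranial library. Cd74 kept a nearly constant proportion to H2-Ab1, with 3.41 and 3.25 units of Cd74 per unit of H2-Ab1 on the per-kilobase scale. The class II genes with the invariant chain together took 0.134% of all counts in the intracranial library and 1.06% in the extracranial library.

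Ciita, the transactivator without which class II genes stay silent in most cells, had 174 counts (5.01 CPM) in the intracranial library and 1363 counts (50.9 CPM) in the extracranial library. Its log2 ratio was 3.35 (3.12 to 3.58), and this interval overlapped those of H2-Aa and H2-Eb1 but not that of H2-Ab1. Ciita binds no DNA itself and acts through factors that sit on the X and Y boxes of its target promoters. The 7 genes listed for these factors were Rfx5, Rfxap, Rfxank, Nfya, Nfyb, Nfyc and Creb1. They had a median log2 ratio of 0.23, with 0 called in either direction, against 1.78% higher and 5.41% lower of all genes. Their log2 ratios ran from -0.27 for Nfyb to 0.33 for Creb1.

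The boxes can be read in the sequences just upstream of the class II genes. Shown are the 120 bases before the RefSeq start of H2-Aa (chr17:34287824-34287943, minus strand), H2-Eb1 (chr17:34305747-34305866, plus strand) and H2-DMb1 (chr17:34153071-34153190, plus strand) on build GRCm38.p6, because 2 of these genes are I-A and I-E chains and H2-DMb1 was the called gene of peptide editing. Capitals mark matches on either strand to CTGATTGG, the Y box bound by NF-Y, to its core ATTGG, to AACTGATG, a part of the X box, which RFX binds, or to TGACG and TGACGTCA, which CREB factors bind.
H2-Aa: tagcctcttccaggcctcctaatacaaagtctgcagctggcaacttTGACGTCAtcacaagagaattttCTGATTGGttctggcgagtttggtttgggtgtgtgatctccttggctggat
H2-Eb1: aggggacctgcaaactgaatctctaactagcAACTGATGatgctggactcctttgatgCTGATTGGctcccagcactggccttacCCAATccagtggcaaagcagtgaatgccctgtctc
H2-DMb1: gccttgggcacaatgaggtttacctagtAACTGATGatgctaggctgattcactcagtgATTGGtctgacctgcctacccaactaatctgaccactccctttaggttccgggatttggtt
In H2-Aa the CTGATTGG match began 51 bases before the start and the TGACGTCA match 74 bases before it. In H2-Eb1 the X box letters began 89 bases and the Y box 62 bases before the start. H2-DMb1 held the X box letters 92 bases upstream, and of the Y box only the core, 61 bases upstream. A RefSeq window of 250 upstream bases was found for 38 of the 46 members, and none for Cd74, Ciita, H2-Ab1, H2-Q1, H2-T24, Nlrc5, Tap2 and Tapbpl. CTGATTGG was found in 18 of the 38 members and in 4.43% of 27025 genes with such a window. Among these 18, H2-Aa, H2-Eb1, H2-Eb2 and H2-Oa were class II genes. Most of the others were class I heavy chains, some of them, such as H2-M10.1 and H2-M11, with 0 counts in both libraries. AACTGATG was found in H2-Eb1, H2-Eb2, H2-DMb1 and H2-M10.4 and in 0.792% of all genes. TGACGTCA, found in H2-Aa, was held by 1.77% of all genes, and the short core ATTGG, which lies inside CTGATTGG, by 37.5%. The members' windows descend in part from shared ancestors, and a match is a description of letters, not of binding.

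Peptide editing replaces the fragment left by the invariant chain with other peptides. H2-DMa and H2-DMb1 or H2-DMb2 form the editing molecule DM, and H2-Oa and H2-Ob form its inhibitor DO, known from B cells. H2-DMb1 had 1524 counts (43.9 CPM) and 5690 counts (213 CPM), for a log2 ratio of 2.28 (2.20 to 2.36), which passed the limit. H2-DMb2 had 447 and 1508 counts (12.9 and 56.4 CPM), and its log2 ratio of 2.13 had an interval of 1.98 to 2.29 that just included 4-fold. H2-DMa had 1402 and 4151 counts (40.3 and 155 CPM), for a log2 ratio of 1.94 (1.86 to 2.03). All 3 were thus more abundant in the extracranial library, and H2-DMb1 and H2-DMb2 share 16.4% and 17.0% of their windows of 72 bases, the read length, chiefly with each other. The 2 beta chain genes differed in proportion by a log2 value of 0.15 (-0.03 to 0.32), an interval that includes 0.

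Of the inhibitor chains, H2-Ob had 67 and 249 counts (1.93 and 9.30 CPM), for a log2 ratio of 2.27 (1.88 to 2.68). H2-Oa had 15 and 31 counts, which gave a log2 ratio of 1.42 (0.49 to 2.42). Both were low beside DM, since per kilobase H2-Ob stood at 1.73 and H2-DMb1 at 126 in the extracranial library. The median log2 ratio of the 5 editing genes was 2.13, against 3.04 for the 4 classical class II genes. Summed per kilobase, peptide editing differed 4.50-fold between the libraries.

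**Figure D2:**
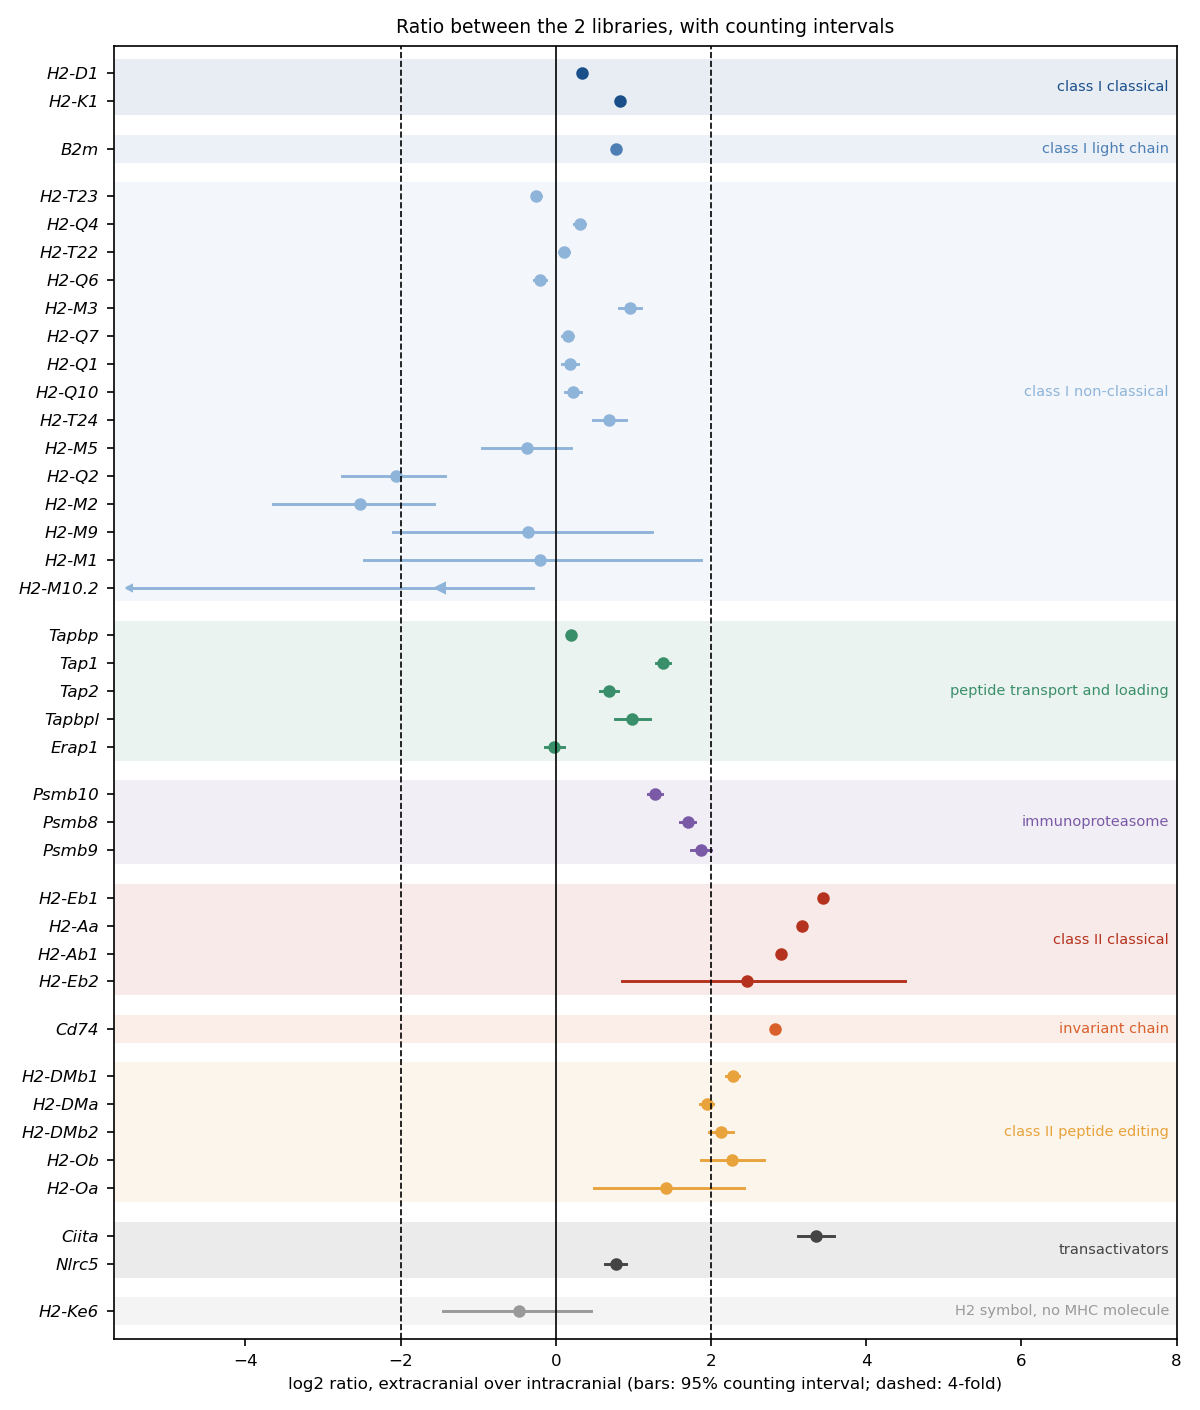
Log2 ratio of each of the 39 members, extracranial over intracranial, with bars for the 95% counting interval, a solid line at equal levels and dashed lines at 4-fold. H2-Eb1, Ciita, H2-Aa, H2-Ab1, Cd74 and H2-DMb1 lie wholly beyond the right dashed line, the classical class I genes lie between the solid and the right dashed line, and H2-M10.2 (triangle, 1 count in the extracranial library) has an interval that runs off the axis at the left.

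The cells that make class II molecules were followed through marker lists. The 10 macrophage markers summed to 2966 CPM in the intracranial library and 8370 CPM in the extracranial library, a 2.82-fold difference. Of these, 8 had an interval above equal levels and 2 below, and Cd163, a scavenger receptor of resident macrophages, was called lower, with 3507 and 480 counts. The 6 markers of all leukocytes summed to 761 and 1937 CPM, a 2.55-fold difference. Summed CPM of the class II genes with Cd74 was 0.448 per CPM of the macrophage list in the intracranial library and 1.28 in the extracranial library, 2.85-fold apart. Against the leukocyte list the values were 1.75 and 5.52. The class II difference was therefore larger than that of either list, although which cells carried the class II RNA was not tested.

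Other presenting cells differed as well. The 10 dendritic cell markers summed to 106 and 166 CPM, of which Fscn1 alone gave 77.6 and 103 CPM. Of the 10, 4 were called higher, against 1.78% of all genes. They were Clec9a with 10 and 148 counts, Xcr1 with 16 and 112, Batf3 with 110 and 528 and Ccr7 with 34 and 165. The other 6 were not called. Among them Itgax had 516 and 330 counts, Cd209a 15 and 8 and Fscn1 2698 and 2746. Flt3 had 58 and 71, Zbtb46 151 and 203 and Ccl22 73 and 130. After scaling, 8 of the 10 dendritic cell markers had an interval above equal levels, 1 (Itgax) below and 1 (Cd209a) across it. Clec9a, Xcr1 and Batf3 mark the cross-presenting dendritic cell type, and Ccr7 marks migrating dendritic cells. The 8 markers of B and plasma cells summed to 3.40 and 26.5 CPM, of which Cd79b alone gave 1.64 and 22.7 CPM. The B cell markers Ms4a1 and Pax5 had 3 counts and 1 count in the intracranial library and 12 and 10 in the other. Cd79a had 19 and 15 counts and Jchain 32 and 40, both with intervals that included equal levels. Of the 6 markers on this list with a ratio, 4 had an interval above equal levels and 2 across it. Of the 10 T cell markers, 6 had an interval above equal levels, 1 below and 3 across it. Cd4 had 20 and 172 counts, Cd8a 17 and 222 and Cd8b1 12 and 92, all 3 called higher, against 1.78% of all genes. The receptor gene Trac had 30 and 116 counts. Cd3e, part of the T cell receptor complex, had 61 and 48, for a log2 ratio of 0.03 (-0.55 to 0.60). Cd5, the 1 below, had 82 and 37, so the list did not move as 1 block. The part of these cells in the class II values was not tested.

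**Figure D3:**
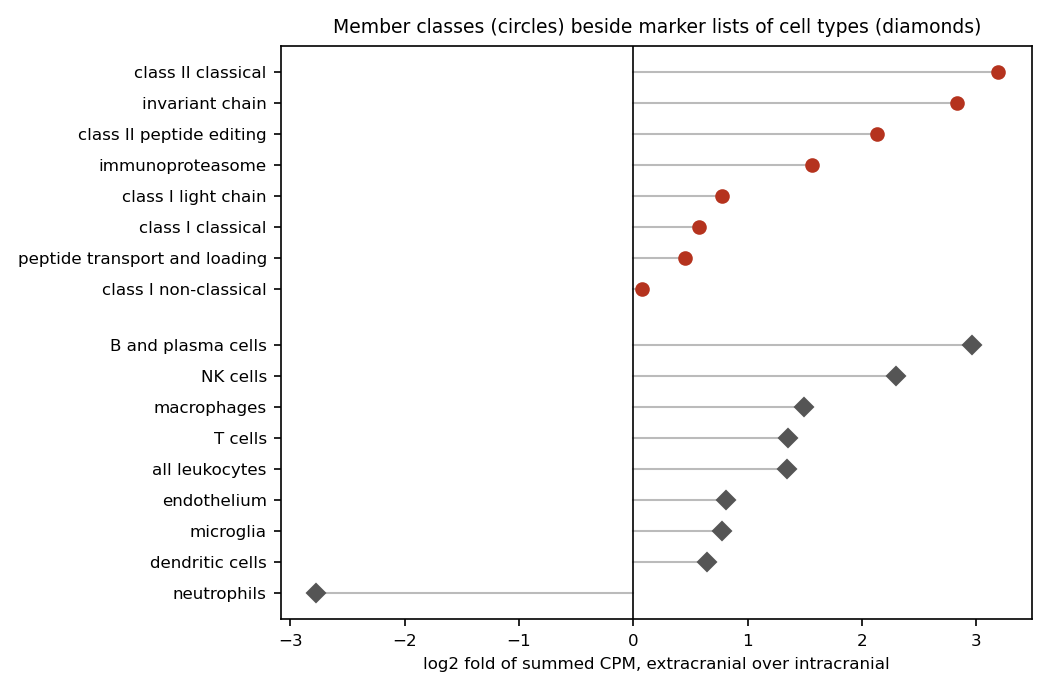
Log2 fold of summed CPM between the libraries, extracranial over intracranial, for the member classes (circles) and for marker lists of cell types (diamonds), 1 value each with no replicates. Classical class II and the invariant chain lie to the right of the macrophage and leukocyte lists, class I genes lie to their left, the small B cell list lies near class II, and the keratinocyte list, at 20258 and 0.747 CPM, is left out because it would lie far off the axis.

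Class I genes differed much less. H2-K1 encodes the classical heavy chain K and had 20075 counts (578 CPM) in the intracranial library and 27447 counts (1026 CPM) in the extracranial library. Its log2 ratio was 0.83 (0.80 to 0.85). H2-D1, the other classical heavy chain, had 25071 and 24484 counts (722 and 915 CPM), for a log2 ratio of 0.34 (0.32 to 0.37). B2m, the light chain that class I heavy chains need at the cell surface, had 30202 and 39957 counts (869 and 1493 CPM) and a log2 ratio of 0.78 (0.76 to 0.80). None of these 3 was called, as each lay within 2-fold. B2m was among the most abundant genes of both libraries, at rank 65 and rank 28 per kilobase. The proportion of B2m to H2-K1 per kilobase was 5.14 and 4.97, close to constant, while that of H2-K1 to H2-D1 was 0.703 and 0.984.

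Upstream sequences of both classical genes are shown because H2-K1 and H2-D1 are closely related genes whose ratios differed. The 190 bases before the RefSeq starts of H2-K1 (chr17:34000348-34000537, minus strand) and H2-D1 (chr17:35262904-35263093, plus strand) on build GRCm38.p6 follow. Capitals mark CTGATTGG, ATTGG and TGACG as above, GAANNGAAA, the core of interferon response elements bound by IRF factors, and GGGGATTCC, a kappa B site, on either strand.
H2-K1: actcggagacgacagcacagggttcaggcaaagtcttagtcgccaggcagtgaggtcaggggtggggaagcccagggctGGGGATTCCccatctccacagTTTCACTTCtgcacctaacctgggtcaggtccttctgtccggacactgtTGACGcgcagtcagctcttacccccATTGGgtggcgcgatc
H2-D1: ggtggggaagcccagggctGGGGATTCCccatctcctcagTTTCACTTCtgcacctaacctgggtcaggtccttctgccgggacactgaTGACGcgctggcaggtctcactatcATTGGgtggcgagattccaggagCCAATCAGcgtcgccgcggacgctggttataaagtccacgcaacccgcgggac
Both held the kappa B letters, the interferon response core, TGACG and ATTGG in the same order. CTGATTGG was found nearer to the start in the stretch of H2-D1, at a place that in H2-K1 lies past the RefSeq start and was not searched. The distances of these matches to the start differed, since the RefSeq start of H2-D1 lies further downstream, so that the kappa B site was 171 bases before the start in H2-D1 and 111 bases before it in H2-K1. GGGGATTCC was found in the windows of H2-K1, H2-D1, H2-Q6 and H2-Q7 and of 69 genes in all, 0.255%. GAANNGAAA was found in 8 of 38 members, all class I heavy chains, and in 7.30% of all genes.

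The non-classical class I genes did not share 1 direction. Of the 22, 15 had a ratio, of which 7 had an interval above equal levels, 5 below and 3 across it. Their median log2 ratio was -0.21, and it was 0.15 over the genes with 100 or more counts. Their summed level was 252 CPM per kilobase in the intracranial library and 268 in the extracranial library. Of the 15, 0 were called beyond 4-fold and 2 were lower beyond 2-fold, against 9.77% of all genes.

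H2-T23 encodes Qa-1, the ligand of an inhibitory receptor pair on natural killer cells, and was the most abundant non-classical gene per kilobase in both libraries. It had 5668 counts (163 CPM) in the intracranial library and 3663 counts (137 CPM) in the extracranial library, for a log2 ratio of -0.25 (-0.31 to -0.19). H2-T22, recognized by gamma-delta T cells, had 4472 and 3712 counts, for a log2 ratio of 0.11 (0.04 to 0.17). H2-Q7 encodes Qa-2, and had 3617 and 3097 counts and a log2 ratio of 0.15 (0.08 to 0.22). H2-Q6 had 3331 and 2221 counts, and the log2 ratio was -0.21 (-0.29 to -0.13). These 4 genes thus lay close to equal levels. Their counts are uncertain where genes are near-identical, since 20.1% of the 72-base windows of H2-T22, 19.3% of H2-Q6, 17.8% of H2-Q7 and 6.38% of H2-T23 occur in another gene, in H2-T22 chiefly in the pseudogene H2-T10.

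H2-M3 presents peptides that begin with N-formylmethionine, as bacterial and mitochondrial proteins do. It had 721 counts (20.7 CPM) and 1076 counts (40.2 CPM), and its log2 ratio of 0.95 (0.82 to 1.09) was the highest among the non-classical genes. H2-T24 followed, with 329 and 408 counts and a log2 ratio of 0.69 (0.47 to 0.90). H2-Q4 had 3230 and 3078 counts, H2-Q10 1669 and 1496, and H2-Q1 1695 and 1484, with log2 ratios of 0.31, 0.22 and 0.19. H2-Q10 is known as a soluble molecule of the liver, and 13.1% of its windows were shared, chiefly with H2-Q7.

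H2-Q2 and H2-M2 went the other way. H2-Q2 had 130 counts (3.74 CPM) in the intracranial library and 24 counts (0.897 CPM) in the extracranial library. Its log2 ratio was -2.06 (-2.75 to -1.42). H2-M2 had 75 and 10 counts (2.16 and 0.374 CPM), which gave a log2 ratio of -2.53 (-3.65 to -1.57). Both were lower in the extracranial library beyond 2-fold but not beyond 4-fold, and both were low in each library. Keratinocyte markers moved in the same direction, with all 8 called lower, against 5.41% of all genes. Their part in these 2 values was not tested. H2-M10.2, of a family known from the vomeronasal organ, had 11 counts and 1 count, with a log2 interval from -8.51 to -0.30. H2-M5 with 72 and 43 counts, H2-M9 with 10 and 6 and H2-M1 with 6 and 4 had intervals that included equal levels.

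The remaining 7 non-classical genes gave no ratio. H2-M10.1, H2-M10.3, H2-M10.4, H2-M10.5, H2-M10.6 and H2-M11 had 0 counts in both libraries, which allows a level of up to 0.0863 CPM in the intracranial library and 0.112 CPM in the extracranial library at 3 counts. H2-T3, the TL antigen of the intestinal epithelium, had 1 count in each. H2-Ke6, the enzyme, had 29 and 16 counts and a log2 ratio of -0.48 (-1.46 to 0.45), with 66.1% of its windows shared with an overlapping gene model.

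**Figure D4:**
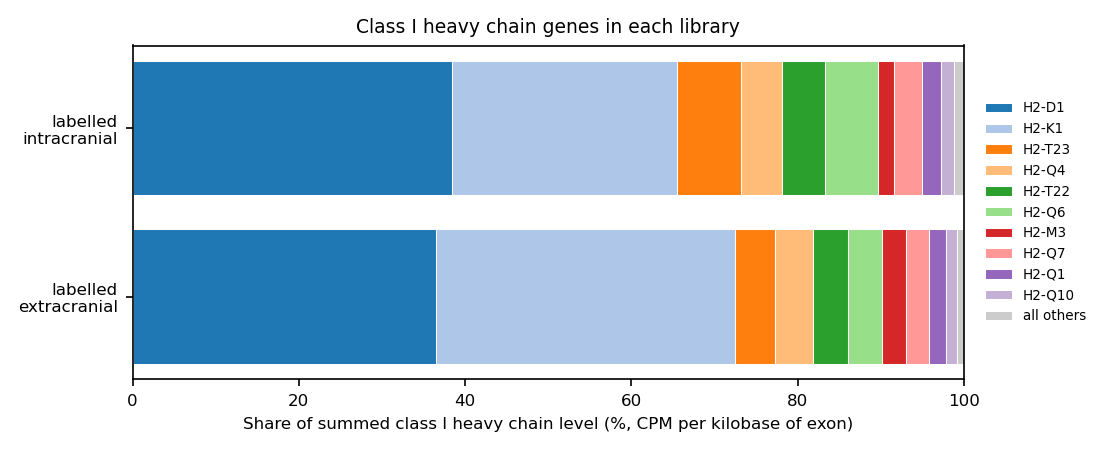
Share of each class I heavy chain gene in the summed heavy chain level of a library, in % of CPM per kilobase of exon, with genes under 1% in the extracranial library pooled as all others. H2-D1 and H2-K1 together made up 65.4% in the intracranial library and 72.4% in the extracranial library, with the gain on the side of H2-K1.

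Within the class I heavy chains the classical pair made up 65.4% of the level per kilobase in the intracranial library and 72.4% in the extracranial library. H2-D1 accounted for 38.4% and 36.5%, and H2-K1 made up the rest of the pair, with 35.9% in the extracranial library. H2-T23 accounted for 7.75% and 4.88%, and H2-Q6 for 6.31% and 4.10%. The summed CPM of the class I heavy chains was 0.681 per CPM of the macrophage list in the intracranial library and 0.323 in the extracranial library. Nlrc5, the transactivator of class I genes, had 773 and 1016 counts, for a log2 ratio of 0.77 (0.64 to 0.91), close to that of H2-K1 and B2m. Against the leukocyte gene Ptprc, Nlrc5 was 0.639-fold and Ciita 3.81-fold as high in the extracranial library as in the other, on the CPM scale. Per kilobase, Nlrc5 stood at 2.62 and Ciita at 0.525 in the intracranial library, against 4.47 and 5.34 in the extracranial library, so that their order was inverted.

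The immunoproteasome is formed when Psmb8, Psmb9 and Psmb10 replace the standard catalytic subunits Psmb5, Psmb6 and Psmb7. Psmb8 had 1311 counts (37.7 CPM) in the intracranial library and 3276 counts (122 CPM) in the extracranial library, for a log2 ratio of 1.70 (1.61 to 1.79). Psmb9 had 699 and 1967 counts (20.1 and 73.5 CPM), for a log2 ratio of 1.87 (1.74 to just under 4-fold). Psmb10 had 1648 and 3072 counts (47.4 and 115 CPM), for a log2 ratio of 1.28 (1.19 to 1.36). All 3 were higher beyond 2-fold, against 5.86% of all genes, and none was beyond 4-fold. The standard subunits did not move with them, as Psmb5 had 2605 and 1596 counts, Psmb6 3624 and 3067 and Psmb7 1624 and 1244, with log2 ratios of -0.33, 0.14 and -0.01.

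Per kilobase, Psmb8 reached 0.134 of the level of Psmb5 in the intracranial library and 0.546 in the extracranial library, a 4.08-fold change (3.73 to 4.46). Psmb9 reached 0.0987 and 0.328 of the level of Psmb6, a 3.33-fold change (3.01 to 3.67). Psmb10 exceeded Psmb7 in both, at 2.04 and 4.95 times its level, a 2.43-fold change (2.21 to 2.68). These ratios are taken within a library and do not depend on its scaling. The immunoproteasome sum was 1.05-fold different when given per CPM of the macrophage list, with 0.0355 and 0.0371, and 1.16-fold when given per CPM of the leukocyte list. The part of the leukocytes in this difference was not tested.

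**Figure D5:**
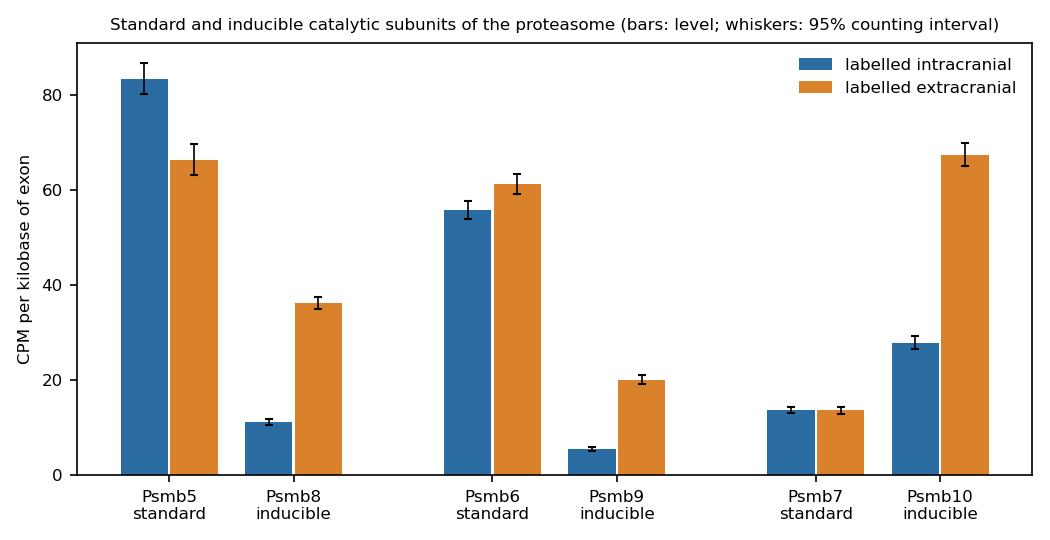
Level of each standard subunit beside the inducible subunit that replaces it, in CPM per kilobase of exon, with whiskers for the 95% counting interval and 1 library per bar. The inducible subunits Psmb8, Psmb9 and Psmb10 stand higher in the extracranial library, and the standard subunits Psmb5, Psmb6 and Psmb7 stand at similar heights in both. Heights of different genes depend on the exon lengths used.

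Peptide transport and loading was mixed. Tap1, a subunit of the peptide transporter, had 1569 counts (45.2 CPM) in the intracranial library and 3150 counts (118 CPM) in the extracranial library, for a log2 ratio of 1.38 (1.29 to 1.47). Tap2, its partner in the heterodimer, had 1172 and 1450 counts (33.7 and 54.2 CPM), which gave a log2 ratio of 0.68 (0.57 to 0.80). The proportion of Tap1 to Tap2 differed by a log2 value of 0.70 (0.56 to 0.84) between the libraries. Tapbp, which encodes tapasin and bridges TAP to class I, had 8174 and 7195 counts and a log2 ratio of 0.19 (0.15 to 0.24). Tapbpl, its homologue TAPBPR, had 264 and 403 counts and a log2 ratio of 0.99 (0.76 to 1.22). Erap1, which trims peptides in the endoplasmic reticulum, had 1338 and 1017 counts, with an interval of -0.14 to 0.10 around a log2 ratio of -0.02. Only Tap1 of these 5 was higher beyond 2-fold, against 5.86% of all genes.

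Tap1 and Psmb9 lie head to head on chromosome 17 and share 1 upstream stretch, which is shown because both genes were beyond 2-fold. The 225 bases between their RefSeq starts (chr17:34187331-34187555 on build GRCm38.p6, plus strand, Psmb9 to the left and Tap1 to the right) carry in capitals CTGATTGG, read on the minus strand, and TGACG.
between Psmb9 and Tap1: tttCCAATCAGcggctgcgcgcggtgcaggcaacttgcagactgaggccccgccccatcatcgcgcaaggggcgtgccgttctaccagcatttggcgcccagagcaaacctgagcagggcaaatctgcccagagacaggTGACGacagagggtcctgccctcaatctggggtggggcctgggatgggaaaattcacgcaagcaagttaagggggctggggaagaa
The CTGATTGG match lay next to the start of Psmb9 and the TGACG match 86 bases before the start of Tap1. Neither the letters GAANNGAAA nor GGGGATTCC were found in this stretch. The ratio of Tap1 to Psmb9 in the extracranial library was 0.713 of that in the intracranial library, so the pair was not in a fixed proportion.

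Of the genes of antigen presentation outside the members, 48 were listed and 47 had a ratio. Their median log2 ratio was 0.24, with 2 called higher and 1 called lower, against 1.78% and 5.41% of all genes. The called genes were the costimulatory ligand Cd80 with 294 and 1410 counts, the costimulatory receptor Cd40 with 185 and 711 counts, and the MHC-like gene Azgp1 with 46 and 0 counts. Beyond 2-fold, 9 were higher and 1 lower, against 5.86% and 9.77% of all genes. Cd86, the partner of Cd80, had 537 and 1192 counts, for a log2 ratio of 1.53 (1.38 to 1.68). Cd274, which encodes the checkpoint ligand PD-L1, had 479 and 233 counts, for a log2 ratio of -0.66 (-0.89 to -0.43). The endolysosomal protease Ctss, which cuts the invariant chain, had 28475 and 41017 counts, for a log2 ratio of 0.90 (0.88 to 0.93). The protease Ctsl of the same list was lower, with 16187 and 6522 counts and a log2 ratio of -0.93 (-0.98 to -0.89). Of the 9 genes listed for endolysosomal processing, 6 had an interval above equal levels, 2 below and 1 across it. March1, the ligase that removes class II from the surface, had 605 and 1495 counts, for a log2 ratio of 1.68 (1.54 to 1.82).

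Of the 10 genes listed for interferon signalling, 9 had a ratio and a median log2 ratio of 0.76. None of them was called beyond 4-fold, against 1.78% higher and 5.41% lower of all genes. Ifng, which encodes interferon-gamma, had 1 count in the intracranial library and 10 in the extracranial library, too few to set its level. Irf1, which interferon-gamma induces, had 1710 and 2888 counts and a log2 ratio of 1.13 (1.05 to 1.22). Irf8, a factor of macrophages and dendritic cells, had 1497 and 4120 counts and a log2 ratio of 1.84 (1.75 to 1.92). The 5 listed folding factors of class I in the endoplasmic reticulum had a median log2 ratio of 0.07, led in level by Calr, with 20372 and 19900 counts.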

How the data were processed

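Bulk RNA-seq had been carried out on 2 mouse tumors, grouped by the localization label alone. The authors selected poly(A) RNA, sequenced directional libraries as single reads, aligned them with STAR 2.7.9a and counted reads per Ensembl gene with featureCounts. The strand setting and the treatment of reads with several alignments were not given in the sources used here. The submitters' processing notes name GRCm39, FastQC 0.11.9 and MultiQC 1.11. The deposited values were raw counts for 55416 genes, with no normalization.

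Symbols, biotypes and exon lengths came from GENCODE release M21, and promoter windows from RefSeq (GRCm38.p6), so no coordinates of the count table were used. Symbols were matched to 52083 IDs. Counts were scaled with TMM (edgeR 4.0.16, R 4.3.3) to CPM, and levels of different genes were compared per kilobase of exon. Exon length was that of the merged exons of all annotated transcripts, so the order of genes by level can depend on it. Genes with at least 10 counts in the libraries together got a ratio, extracranial to intracranial, whose 95% interval was the conditional binomial one of Clopper and Pearson, an exact interval (scipy 1.17.1). Genes were called if this interval did not reach back to 4-fold. Counts of 3 or fewer were set to 3. With 1 library per location, no test between locations could be made, and intervals cover counting error only. They treat each read as independent. Reads that carry no molecular identifiers cannot be taken as independent molecules, so the intervals may be too narrow even for counting error. The procedure was tested on simulated data with independent counting error and no spread between tumors. That test covers the computation and says nothing on error between real tumors. Shared sequence was measured as the percent of 72-base exonic windows of a gene that occur in another gene.

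The members, lists and motifs were chosen with earlier results of these data known, every member could be named, and so could any gene of the lists. Alternatives comprised DESeq2 1.42.0 size factors, total counts, upper quartile scaling, other count minimums, a 2-fold limit, a prior count of 2, levels in CPM and the exact test of edgeR at a coefficient of variation set to 0.4.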

Additional observations from a re-analysis of the deposited data

How the results depend on the processing

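The 6 members called beyond 4-fold were called again under DESeq2 size factors, total counts and minimums of any count or 100 counts. Under upper quartile scaling there were 7, with H2-DMb2 added, and under the edgeR exact test with an assumed coefficient of variation 5, without H2-DMb1. A limit of 2-fold raised the members called to 15 and the other antigen presentation genes called from 3 to 10. The median log2 ratio of classical class I was 0.62 under upper quartile scaling. In CPM in place of CPM per kilobase, the summed fold of classical class II was 9.12 and that of the immunoproteasome 2.95. The median of the non-classical class I genes was -0.04 with a prior count of 2 and 0.15 with 100 or more counts, so its sign depended on the low genes. Over 86 genes under the 3 other scalings, 257 of 258 values stayed on their side of the limit, and H2-DMb2 passed it once. The sign changed in 5 values of 4 genes, Erap1, Psmb7, Sppl2a and Mr1, which lay within 0.037 of 0 on the log2 scale as reported. No paired analysis was possible because there was only 1 library for each location, and for the same reason no library could be left out. Depth limited H2-Eb2, H2-Oa, H2-M10.2, H2-M9, H2-M1 and Ifng, which had few counts.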
